A study of Schizosaccharomyces pombe with 6 samples.

Results

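The left end of chromosome III of the fission yeast Schizosaccharomyces pombe was followed over its outermost 100 kb of array coverage, which starts beside one of the ribosomal DNA (rDNA) arrays that this chromosome carries at its ends. The members were the non-control probes of chromosome III whose middle lies in that stretch, 363 of the 42641 nuclear probes and of the 8344 probes of chromosome III. They run from position 30908 to 130904 in the files' coordinates, with starts 251.5 bp apart in the median, and the annotated ribosomal RNA genes end 7778 bp before the first of them. Position, and no array value, chose the probes.

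Replication protein A (RPA), measured here through its subunit Ssb1, coats single-stranded DNA where the helicase has opened the double strand ahead of the polymerases. Rad3, the ATR-family kinase of this yeast, is recruited to RPA-coated DNA and restrains further origin firing when replication stalls. Origins of this yeast lie mainly in gaps between genes that are rich in A and T and hold long runs of A or T, and the repeated rDNA holds an origin and a fork barrier in each unit.

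The strains were rad3Δ cdc25-22, which lacks rad3, and cdc25-22 with rad3 intact, called WT here as in the labels. The cdc25-22 allele, which both carry, stops cells before mitosis in the heat. Both cultures spent 4 h at 36.5 °C and were then moved to 25 °C with 6 mM hydroxyurea (HU), an inhibitor of ribonucleotide reductase; no harvest time is stated in the sources used here. Each of 3 arrays per strain set immunoprecipitated DNA (IP) against its own input DNA in the other dye, and arrays with the same replicate number shared a slide, with rad3Δ at position 4 and WT at position 2, so that strain and position cannot be told apart. The labels do not say whether the replicates are separate cultures, and p-values then measure only the spread between these samples.

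All values below are log2 of IP over input, centred on the median of each array, so that 0 is the level of the median probe and 1 is a doubling over it. A feature is called different, or above or below the array median, at an adjusted p under 0.05 in limma with Benjamini-Hochberg adjustment over all features of its kind in the genome. Median input intensity of the 363 probes was 1081 to 1220 on the rad3Δ arrays and 1031 to 1168 on the WT arrays. Input was well above background at 97.8% to 100% and at 98.1% to 100% of them. The 33 probes of rad3 itself had a median log2 input of -7.01, -5.09 and -5.56 on the rad3Δ arrays, against -0.31, -0.23 and -0.45 on the WT arrays, a difference that accords with the strain labels.

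The 61 loci of the stretch that held at least 2 probes were 41 protein-coding genes and 20 gaps between neighbouring genes. They take in 352 of the 363 probes, 22 of which lie in 2 overlapping genes. A further 10 loci had 1 probe and were not tested. Of the gaps, 8 were divergent (between the starts of both genes), 2 convergent and 10 tandem.

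Sequence windows of 300 bases are shown for 3 gaps that differ in RPA, because A+T richness is what marks origins in this yeast. The first window lies in the tested gap nearest the chromosome end, which is above the array median in both strains and higher in rad3Δ. The second lies in a gap that is high in both strains and the third in a gap that is low in rad3Δ. They were read from assembly ASM294v3, plus strand, at chrIII:34980-35279, chrIII:76392-76691 and chrIII:123037-123336, and capitals mark runs of at least 6 A or at least 6 T.
Gap SPCP20C8.02C to new22: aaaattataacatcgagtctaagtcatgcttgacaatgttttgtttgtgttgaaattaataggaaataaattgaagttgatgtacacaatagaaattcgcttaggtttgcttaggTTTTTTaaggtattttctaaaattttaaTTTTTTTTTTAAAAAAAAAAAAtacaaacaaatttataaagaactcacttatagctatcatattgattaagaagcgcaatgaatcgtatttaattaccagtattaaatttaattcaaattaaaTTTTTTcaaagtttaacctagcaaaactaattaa
Gap aah1 to SPCC757.13: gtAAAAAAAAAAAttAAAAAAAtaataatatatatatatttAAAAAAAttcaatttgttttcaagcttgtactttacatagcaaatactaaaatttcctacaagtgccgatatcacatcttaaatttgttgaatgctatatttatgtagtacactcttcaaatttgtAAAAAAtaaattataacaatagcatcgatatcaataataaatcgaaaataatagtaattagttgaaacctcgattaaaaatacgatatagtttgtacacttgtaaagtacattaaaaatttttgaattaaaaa
Gap SPCC330.07C to alg11: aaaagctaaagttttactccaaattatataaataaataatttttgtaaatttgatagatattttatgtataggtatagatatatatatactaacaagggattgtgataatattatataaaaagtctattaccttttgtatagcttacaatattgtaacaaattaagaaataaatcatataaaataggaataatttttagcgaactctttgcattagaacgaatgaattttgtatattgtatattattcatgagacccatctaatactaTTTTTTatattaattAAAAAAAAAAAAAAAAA

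The windows hold 78.0%, 80.3% and 81.7% A+T, with 4, 4 and 2 such runs. Of 41905 windows of the same width along the nuclear chromosomes, 55.2% hold at least 1 run, 23.9% at least 2 and 3.1% at least 4. Those background windows take in genes, whereas each window shown is the most A+T-rich one of its gap. Because of that choice, the shares cannot show whether these gaps hold more runs than others. The third window had the highest A+T share and the longest run, 17 bases, yet lies in the gap with the lowest RPA ratio of the 3.

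RPA was higher in rad3Δ in the outermost 10 kb of the stretch, and the rad3Δ ratio then stepped down with distance while the WT ratio changed less. The outermost 10 kb (33 probes) had 0.69, 0.68 and 0.68 on the rad3Δ arrays, against 0.27, 0.20 and 0.19 on the WT arrays. Every rad3Δ array stood above every WT array there, and the 3 rad3Δ arrays lay closer together than in any other window of the stretch. The mean was 0.68 ± 0.0061 in rad3Δ and 0.22 ± 0.044 in WT (SD, n = 3 each), a difference of 0.46 (SE 0.064, limma adjusted p = 0.00034), or 1.38-fold. All 33 probes were higher in rad3Δ on average, and 25 of them on each of the 3 slides.

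**Figure D1:**
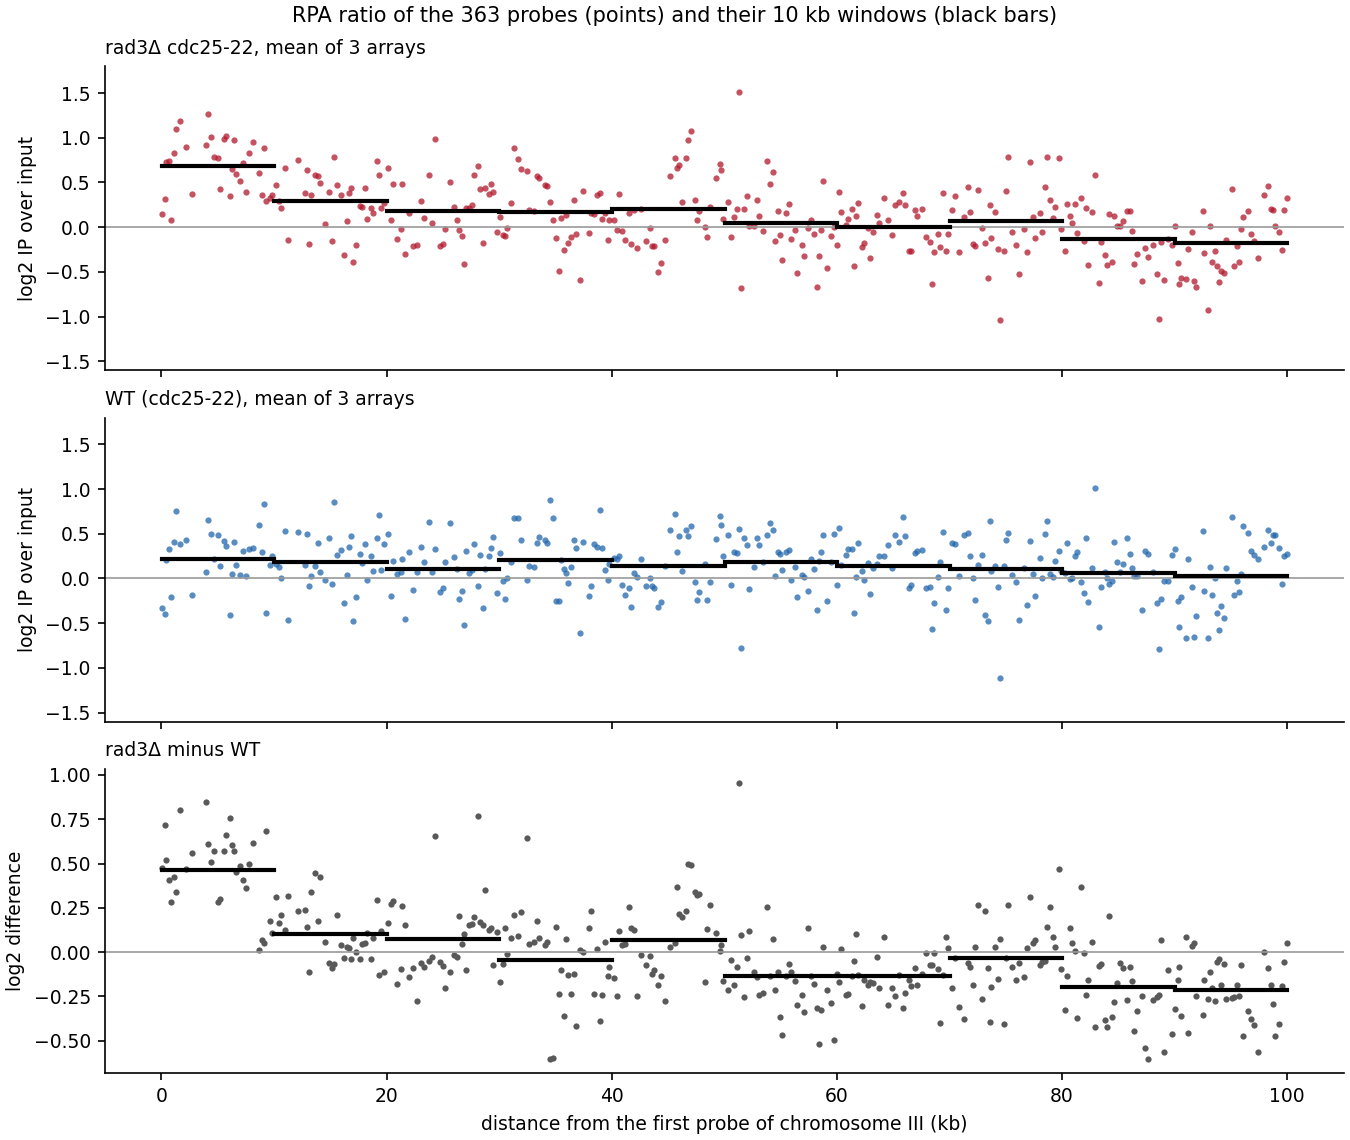
Log2 IP over input of the 363 probes against distance from the first probe of chromosome III in kb, as means of 3 arrays in rad3Δ (top) and WT (middle), and the difference rad3Δ minus WT (bottom); black bars are 10 kb windows. The first window stands at 0.68 in rad3Δ, against 0.22 in WT, and the differences turn mostly negative beyond 50 kb.

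Of the 10 windows of 10 kb, this first one was called higher in rad3Δ and none lower, against 18.9% of all 10 kb windows called higher and 10.9% called lower. From 10 to 50 kb the 4 windows averaged 0.17 to 0.29 in rad3Δ and 0.11 to 0.21 in WT, and differences of -0.043 to 0.10 did not pass the test. From 50 to 100 kb all 5 differences were negative with centring on the whole array, between -0.21 and -0.032. None of them passed in limma's fit without slides, and 2 had an unadjusted p under 0.05. With the slide as a block, the windows from 60 to 70, 80 to 90 and 90 to 100 kb fell in rad3Δ, by 0.13, 0.20 and 0.21 (adjusted p = 0.045, 0.016 and 0.026), against 24.9% of all windows called lower in that fit.

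The last window, 90 to 100 kb from the first probe, had -0.21, -0.14 and -0.20 on the rad3Δ arrays, against -0.12, 0.079 and 0.13 on the WT arrays. All rad3Δ arrays were lower there than all WT arrays. Within each array the outermost 10 kb exceeded the other 90 kb by 0.63, 0.67 and 0.55 in rad3Δ, against 0.18, 0.11 and -0.021 in WT. The strains did not overlap in this excess (exact permutation test over arrays, two-sided, p = 0.10, the smallest that 3 arrays against 3 allow).

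**Figure D2:**
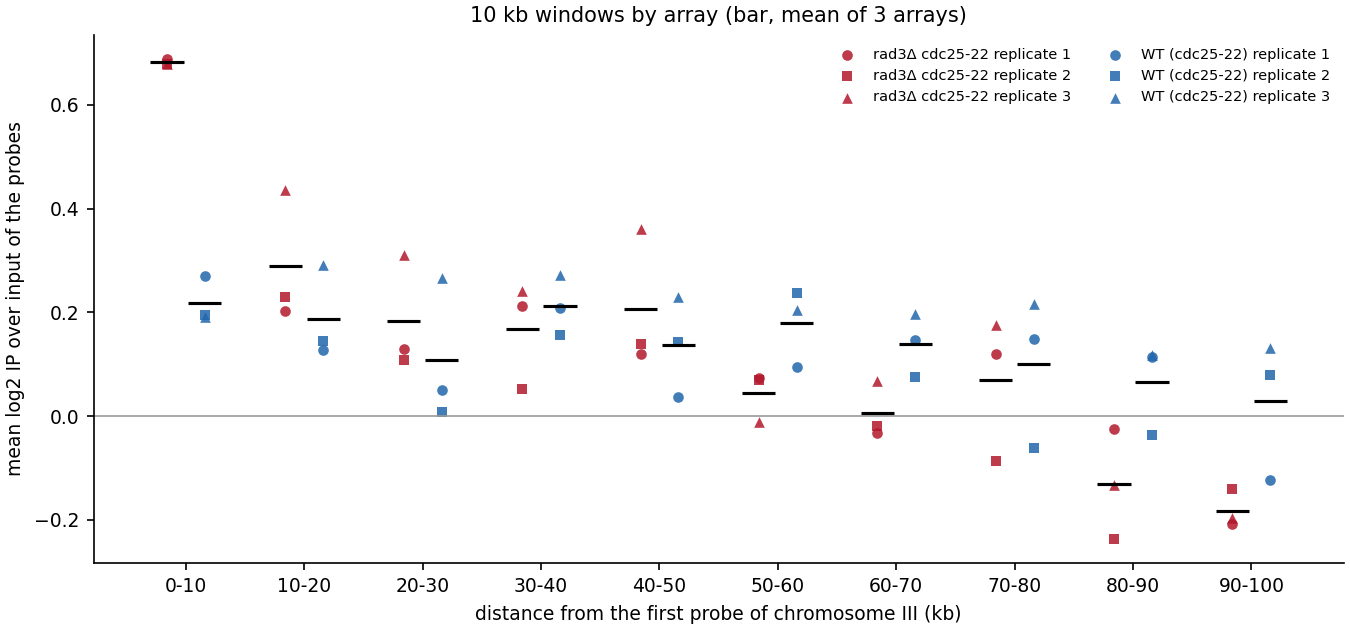
Mean log2 IP over input of the probes of each 10 kb window, by distance from the first probe in kb, with 1 symbol per array (rad3Δ red and left, WT blue and right) and bars for the mean of 3 arrays. The rad3Δ arrays lie together near 0.68 in the first window and below 0 in the last, whereas the WT means stay between 0.029 and 0.22.

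The 4 loci nearest the end were the 4 loci of the stretch called different, all higher in rad3Δ. Called rises made up 4 of 61 loci here, or 6.56%, against 11.3% of the 5757 genes and gaps tested genome-wide. Called falls made up 0 of 61 in limma, against 1.37%, with 5 at an unadjusted p under 0.05 and 4 with the slide as a block. These loci are the gene SPCP20C8.02C, the divergent gap behind it, the small gene new22 and the gene SPCC1884.01; all 3 genes are annotated as encoding proteins without an assigned function.

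SPCP20C8.02C (chrIII:30561-31520, 3 probes) had 0.43, 0.32 and 0.44 in rad3Δ, against -0.013, -0.49 and -0.019 in WT. The gene was among the 5 lowest loci of the stretch in WT, at -0.17 ± 0.27, and well above the median probe in rad3Δ, at 0.40 ± 0.071 (SD, n = 3 each). Its difference was 0.57 (SE 0.14, adjusted p = 0.022).

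The gap between SPCP20C8.02C and new22 (chrIII:31521-36420, 13 probes) holds the first sequence window, a long terminal repeat and the pseudogene SPCP20C8.03. It had 0.83, 0.69 and 0.89 in rad3Δ, against 0.41, 0.29 and 0.21 in WT, with 1 flagged spot left out on rad3Δ replicate 2. Both strains stood above the array median, and the difference was 0.50 (SE 0.11, adjusted p = 0.017). Within it, the probes within 250 bp of the long terminal repeat averaged 0.55 in rad3Δ and 0.18 in WT, and those of the pseudogene 0.82 in rad3Δ and 0.21 in WT.

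The highest locus of the stretch in rad3Δ was new22 (chrIII:36421-36657, 2 probes). It had 1.02, 1.08 and 0.92 in rad3Δ, against 0.62, 0.21 and 0.34 in WT. Every rad3Δ array was above every WT array, by 0.62 in the fit (SE 0.13, adjusted p = 0.0097). The input of its 2 probes was low on 1 array, WT replicate 1, at -1.67 against 0.042 to 0.13 on the other WT arrays and -0.076 to 0.41 on the rad3Δ arrays, and the IP of that array was low with it, at -1.09. Its input difference of 0.65 ranked 1st of 5757 loci and was not called (limma adjusted p = 1.0), with 1.59, 0.28 and 0.063 on the 3 slides, and its part in the rise of the ratio was not tested. Without that array the difference in ratio was 0.73.

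SPCC1884.01 (chrIII:36972-38788, 8 probes) had 0.55, 0.75 and 0.59 in rad3Δ, against -0.047, 0.25 and 0.13 in WT, a difference of 0.52 (SE 0.12, adjusted p = 0.019). The rise ended in the gap that follows, before nic1, the gene of a nickel transporter of the plasma membrane. That gap (13 probes) had 0.46 ± 0.046 in rad3Δ and 0.23 ± 0.12 in WT (SD, n = 3 each), and its difference of 0.24 did not pass (adjusted p = 0.19), although its arrays did not overlap. nic1 itself had 0.37 ± 0.19 in rad3Δ and 0.23 ± 0.11 in WT.

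Both the IP and, less so, the input were higher in rad3Δ over the outermost 10 kb. The IP averaged 0.55 ± 0.094 in rad3Δ and -0.050 ± 0.092 in WT, and the input -0.096 ± 0.088 in rad3Δ and -0.25 ± 0.11 in WT (SD, n = 3 each). The input difference of 0.15 was not called (limma adjusted p = 0.58) and ranked 24th from the top of 1225 windows, and its part in the result was not tested. Of the 363 probes, 12 had a near copy elsewhere in the reference (at least 85% identity over 80% of the probe), 11 of them in the outermost 10 kb. For 10 probes the copy lay at the right end of chromosome III, between positions 2427623 and 2432908, so their signal can hold DNA of both ends. Without these probes the difference of the first window was 0.45 (adjusted p = 0.00035), the gap before new22 had 0.57 and SPCC1884.01 0.54, whereas SPCP20C8.02C kept fewer than 2 probes and gave no value.

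The calls of the 4 loci did not hold without replicate 3, the arrays with the dyes swapped. Without it in either strain or in both, differences were 0.41 to 0.63 and none passed (adjusted p = 0.078 to 0.19). With all arrays they were 0.50 to 0.62. The settings without replicate 3 all compare replicates 1 and 2, since the dye term takes up a swapped array left alone. They also hold fewer arrays, so the lost calls do not show that replicate 3 carried the rise. Without rad3Δ replicate 1, new22 and SPCC1884.01 passed, SPCC1884.01 missed without WT replicate 1 (0.42) or rad3Δ replicate 2 (0.45), and the first 10 kb window passed without any single array, at 0.44 to 0.49. With normexp background correction neither the 4 loci nor that window passed, the window at 0.25 (adjusted p = 0.57).

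At the right end of the chromosome, beside its other rDNA array, the outermost 10 kb window had 0.79 ± 0.13 in rad3Δ and 0.39 ± 0.0022 in WT (SD, n = 3 each), a difference of 0.39 (SE 0.070, adjusted p = 0.0016). The near copies of left-end probes begin inside this window, at position 2427623, so its signal can also hold DNA of both ends. Probes of the right end were not left out for such copies. More windows were called there: 7 of the 12 outermost windows of 10 kb at the right end were higher in rad3Δ, against 1 of 12 at the left end counted to the same depth. Of all 10 kb windows, 18.9% were called higher. The 7 did not form 1 run: the outermost group of neighbouring called windows began at position 2400931. The window before that group, from 2390931, differed by 0.086 and was not called (limma adjusted p = 0.40). The difference between the ends was not tested.

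From 10 to 50 kb the 22 loci had a median of 0.22 in rad3Δ and 0.18 in WT, and 15 of the 22 differences were above 0, none of them called. Beyond 50 kb the sign turned: 4 of 20 differences were above 0 from 50 to 80 kb and 1 of 15 from 80 to 100 kb, with median differences of -0.084 and -0.21. These signs depend on the centring, since centring on chromosome III moves every difference by 0.12. The other windows of 100 kb on the chromosome had a median difference of -0.15, so lower values in rad3Δ were not particular to this part. Over all 61 loci, 6 (9.84%) had every rad3Δ array above every WT array and 11 (18%) had the opposite, against 17.3% and 11.3% of loci genome-wide.

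The tandem gap between aah1, the gene of a cell-surface glycosyl hydrolase, and the dipeptide transporter gene SPCC757.13 was among the highest loci in both strains. This gap (chrIII:75523-77174, 5 probes) holds the second sequence window, and it had 0.47, 0.47 and 0.60 in rad3Δ, against 0.57, 0.22 and 0.51 in WT. It stood above the array median in both strains (adjusted p = 0.00073 in rad3Δ and 0.0026 in WT), and the arrays of the strains overlapped, with a difference of 0.078 (adjusted p = 0.68, 95% interval -0.18 to 0.34).

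The gap between the transporter gene SPCC613.02 and SPCC613.03, which encodes a calcium-binding protein, was the highest locus in WT (chrIII:84908-85326, 2 probes). It had 0.95, 0.24 and 0.47 in rad3Δ, against 0.65, 0.54 and 0.55 in WT. The rad3Δ arrays spread to both sides of the WT arrays, and the interval of the difference ran from -0.40 to 0.34. Just before the SPCC613.02 gene, the gap after SPCC613.01 was among the lowest in WT, at -0.24 ± 0.24 in rad3Δ and -0.16 ± 0.11 in WT (SD, n = 3 each).

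The convergent gap between SPCC757.06 and ctt1, the gene of catalase, had 0.072, 0.23 and 0.43 in rad3Δ, against 0.24, 0.41 and 0.56 in WT. Near the inner border of the stretch, the gap between enp2 and pcm1 had 0.13, 0.32 and 0.15 in rad3Δ, against 0.32, 0.60 and 0.40 in WT. Both were among the 5 highest loci of the stretch in WT and not in rad3Δ, with differences of -0.16 and -0.24 that did not pass (adjusted p = 0.36 and 0.21).

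**Figure D3:**
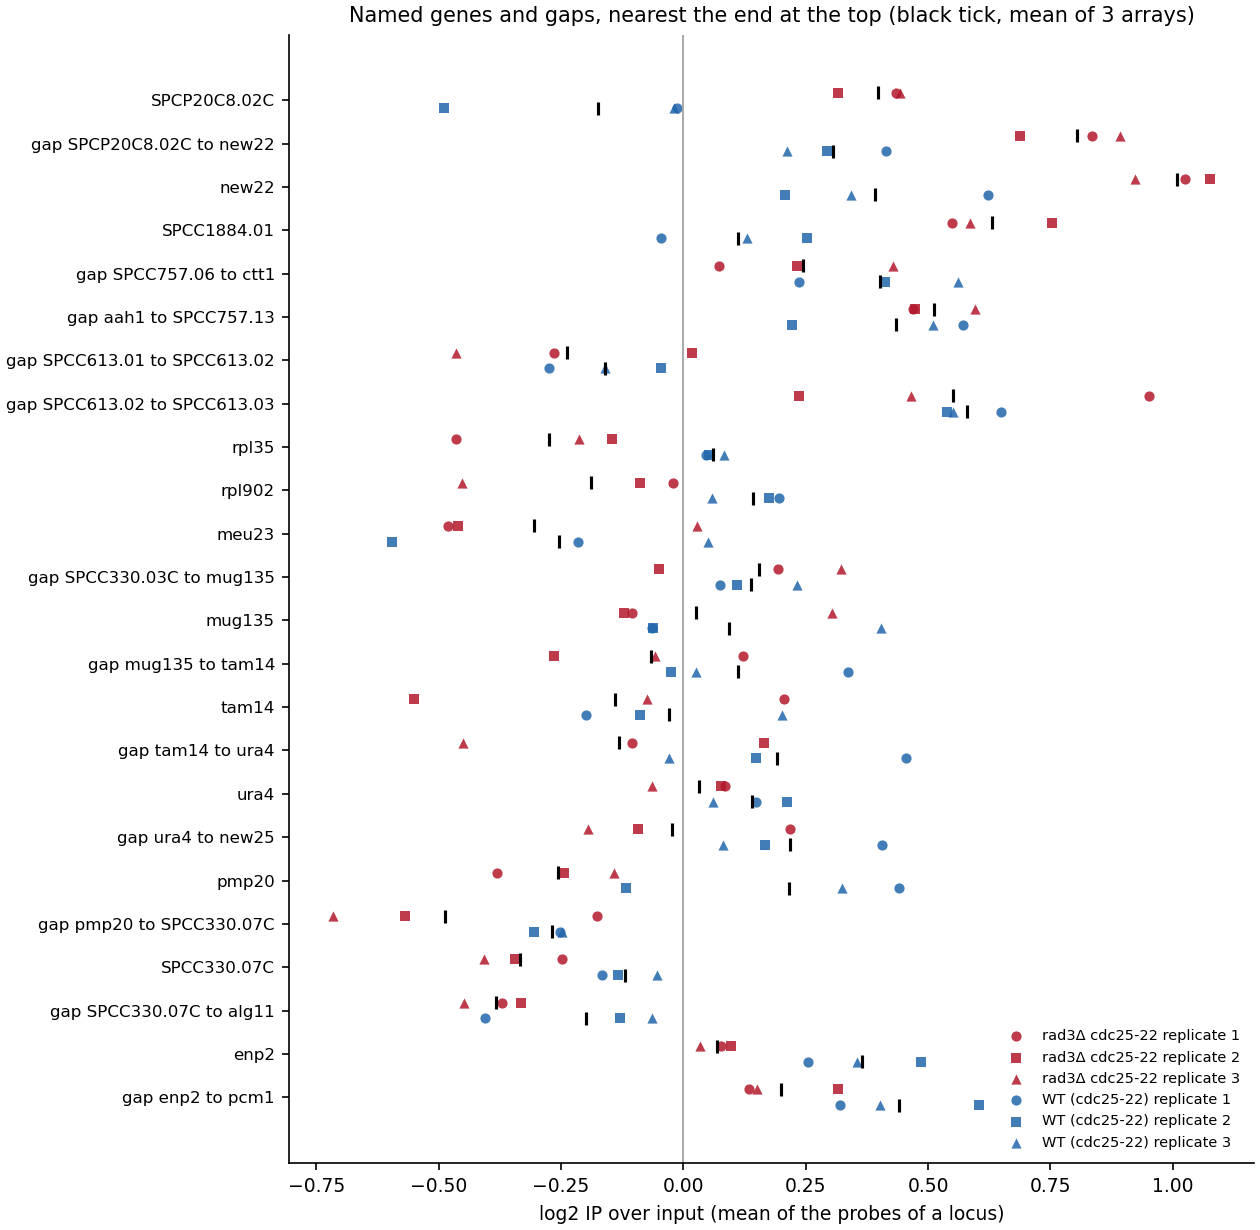
Log2 IP over input of the named genes and gaps, nearest the chromosome end at the top, with 1 symbol per array (rad3Δ red and above, WT blue and below) and black ticks for the mean of 3 arrays. In the top 4 loci all rad3Δ arrays lie right of all WT arrays; rpl35, rpl902, pmp20, SPCC330.07C, enp2 and the gap after it show the opposite order.

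No locus was called lower in rad3Δ in the fit without slides. The 5 largest differences of that sign without overlap of arrays were those of pmp20, rpl35, rpl902, enp2 and the gap after enp2, and with the slide as a block 4 of these, all but the last, passed (adjusted p = 0.031, 0.036, 0.038 and 0.045), against 5.14% of loci called lower genome-wide in that fit. The neighbours rpl35 and rpl902 encode the large-subunit ribosomal proteins L35 and L9, enp2 encodes a protein of ribosomal RNA processing, and pmp20 encodes a thioredoxin-related chaperone.

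rpl35 (4 probes) had -0.46, -0.15 and -0.21 in rad3Δ, against 0.046, 0.052 and 0.084 in WT. rpl902 (3 probes) had -0.022, -0.089 and -0.45 in rad3Δ, against 0.19, 0.17 and 0.059 in WT. In both genes rad3Δ lay below the median probe and WT near it, with differences of -0.34 (SE 0.11) for rpl35 and -0.33 (SE 0.11) for rpl902. Replicate 1 was the lowest rad3Δ array for rpl35 and replicate 3 for rpl902.

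enp2 (6 probes) had 0.077, 0.10 and 0.034 in rad3Δ, against 0.25, 0.49 and 0.36 in WT, a difference of -0.30 (SE 0.11, adjusted p = 0.11 without the block). It stood above the array median in WT only by its call. pmp20 (3 probes) had -0.38, -0.24 and -0.14 in rad3Δ, against 0.44, -0.12 and 0.32 in WT, and the IP of 1 of its probes was not well above background on any rad3Δ array, so its ratio there is partly a bound. Its input was the lowest named here, -2.61 ± 0.18 in rad3Δ and -2.49 ± 0.28 in WT, and its difference of -0.47 became 0.43 with normexp background correction. It passed without WT replicate 2, at -0.63 (adjusted p = 0.0072), and with at least 3 probes per locus (adjusted p = 0.047).

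Next to pmp20 lay the lowest run of the stretch in rad3Δ. The gap from pmp20 to the transporter gene SPCC330.07C (5 probes) had -0.18, -0.57 and -0.72 in rad3Δ, against -0.25, -0.30 and -0.25 in WT, and it was the 1 locus called below the array median in WT. SPCC330.07C itself (8 probes) had -0.25, -0.34 and -0.41 in rad3Δ, against -0.17, -0.13 and -0.054 in WT. The divergent gap behind it, before the mannosyltransferase gene alg11, had -0.37, -0.33 and -0.45 in rad3Δ, against -0.40, -0.13 and -0.065 in WT. All 3 were called below the array median in rad3Δ (adjusted p = 0.0019 to 0.0054), and none differed between strains by the test (differences -0.22, -0.21 and -0.18, adjusted p = 0.21 to 0.34). The meiotically expressed gene meu23, also among the lowest in both strains, had -0.48, -0.46 and 0.028 in rad3Δ, against -0.22, -0.60 and 0.050 in WT, with replicate 3 of each strain near 0.

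Counted over the 61 loci, 21 (34.4%) stood above and 7 (11.5%) below the array median in rad3Δ, against 27.9% and 24.8% of loci genome-wide. In WT, 21 (34.4%) stood above and 1 (1.64%) below, against 21.9% and 23.3%. These counts fell without a replicate 3 array: without WT replicate 3, 0 were above and 0 below in WT, and without rad3Δ replicate 3, 7 were above and 0 below in rad3Δ. The dye effect then rests on the swapped array that is left, which widens the error of a level. Without replicate 3 of both strains, loci stayed above the median in both strains, 7 of them in WT. Only arrays with the IP in green are left there, so these levels include the dye effect and are not midpoints. Whether replicate 3 carried the counts was not tested.

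Runs of at least 3 neighbouring probes above the array median, no more than 1000 bp apart, numbered 13 in rad3Δ and 4 in WT. They covered 10556 bp and 46 probes in rad3Δ, and 2677 bp and 13 probes in WT; single probes called above the median made up 85 of the 363 (23.4%) in rad3Δ and 63 (17.4%) in WT, against 17.2% of probes genome-wide in rad3Δ and 12.8% in WT. The first 7 runs of rad3Δ lay within 16 kb of the first probe, where WT had no called run. Runs were called in each strain separately, so a run called in 1 strain only does not show a strain difference. The mean was higher in rad3Δ in all 7, by differing amounts. It was 0.95 in rad3Δ against 0.39 in WT at chrIII:34833-35966, where the means lay farthest apart. At chrIII:46223-46880, where they lay closest, it was 0.54 ± 0.19 in rad3Δ against 0.48 ± 0.034 in WT (SD, n = 3 each). Runs shared by both strains lay at the start of rrp45, the gene of an RNA exosome subunit, and in SPCC757.13, where the 3 probes averaged 0.94 ± 0.11 in rad3Δ and 0.53 ± 0.19 in WT (SD, n = 3 each). The WT run without a counterpart in rad3Δ that was strongest lay in rnc1, the gene of an RNA-binding protein, with 0.27 ± 0.30 in rad3Δ and 0.65 ± 0.10 in WT. The number of runs was not compared by a test. Runs were counted in the stretch only, so 13 against 4 has no genome-wide share beside it.

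At the level of single probes limma called none of the 363 different, against 3.52% of all probes called higher and 0.0844% called lower; at an unadjusted p under 0.05, 25 were higher and 12 lower. With the slide as a block 6 were called higher, against 5.71% of all probes. Of these 6, 5 lay in the outermost 10 kb, and the sixth lay between ctt1 and cox14, without overlap between strains (0.57, 0.35 and 1.12 in rad3Δ, against 0.15, -0.48 and 0.069 in WT).

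AT-rich islands, 500 bp windows of at least 75% A+T merged where they touch, numbered 3 in the stretch. Probes up to 500 bp outside an island on either side counted for it, so island values also cover flanking sequence. No island of the stretch was called different in limma, or had an unadjusted p under 0.05, against 46.6% of the 322 islands genome-wide called higher and 2.8% called lower in rad3Δ. The island in the gap after aah1 (chrIII:76101-76900, 5 probes) had 0.48, 0.53 and 0.77 in rad3Δ, against 0.52, 0.13 and 0.62 in WT. It was called above the array median in both strains, against 59% of islands genome-wide in rad3Δ and 19.6% in WT, with a difference of 0.17 (95% interval -0.12 to 0.46).

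The islands at chrIII:120151-120900 and chrIII:122651-123600 (7 probes each) lie at either end of SPCC330.07C, and the first reaches into the gene (chrIII:120540-122630). The first had -0.14, -0.35 and -0.41 in rad3Δ, against -0.091, -0.12 and 0.011 in WT. The second, which holds the third sequence window, had -0.35, -0.29 and -0.37 in rad3Δ, against -0.40, -0.18 and 0.013 in WT. Both were called below the array median in rad3Δ (adjusted p = 0.0084 and 0.0070), against 12.4% of islands genome-wide, and none of the 3 was in WT, against 19.6%. With islands of at least 72% A+T the stretch held 14, of which the 2 nearest the end were called higher in rad3Δ, by 0.45 and 0.56, against 25.7% of such islands genome-wide.

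Gaps as a class had a median ratio of 0.18 in rad3Δ and 0.22 in WT, and genes 0.058 in rad3Δ and 0.13 in WT. Genome-wide, 1599 gaps had a median of 0.13 in rad3Δ and 0.065 in WT, and 4158 genes one of -0.011 in rad3Δ and -0.016 in WT. The 8 divergent gaps had a median difference of 0.047, the 10 tandem gaps of -0.053 and the 2 convergent gaps of -0.24, beside 0.057, -0.029 and -0.071 for these classes over all loci.

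Near the histidine transfer RNA gene (chrIII:71400-71471, 2 probes within 250 bp) the ratio averaged 0.17 ± 0.18 in rad3Δ and 0.24 ± 0.20 in WT, and near the glycine transfer RNA gene (chrIII:113716-113786, 2 probes) 0.38 ± 0.27 in rad3Δ and 0.56 ± 0.13 in WT (SD, n = 3 each). Of the 6 long terminal repeats, the remains of retrotransposons, the one nearest the end had 0.55 in rad3Δ and 0.18 in WT, and the one nearest ura4, between mug135 and tam14, had -0.38 in rad3Δ and -0.14 in WT. The other 4 differed by 0.0010 to 0.23.

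The gene ura4 (chrIII:115589-116625, minus strand) encodes orotidine 5′-phosphate decarboxylase of uracil synthesis, and the origin ars3002 is known to lie beside it. No position for ars3002 was taken from the annotation, and the values are given for the genes and gaps within 5 kb of ura4. ura4 (3 probes) had a ratio of 0.085, 0.076 and -0.065 in rad3Δ, against 0.15, 0.21 and 0.060 in WT. Its difference of -0.11 (SE 0.10, adjusted p = 0.50, 95% interval -0.33 to 0.11) did not pass, and the arrays overlapped.

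The flanks of ura4 were not called in either direction without a correction for G+C. The gap on the tam14 side, between the 3′ ends of both genes, had -0.11, 0.16 and -0.45 in rad3Δ, against 0.46, 0.15 and -0.029 in WT. The gap on the other side had 0.22, -0.092 and -0.19 in rad3Δ, against 0.41, 0.17 and 0.081 in WT. Their differences were -0.32 and -0.24 (adjusted p = 0.13 and 0.23). With the G+C correction the first gap was called lower in rad3Δ, at -0.45 (adjusted p = 0.037), and with normexp it was at -1.13 (adjusted p = 0.44). This gap holds 2 probes, and rad3Δ minus WT was 0.023 in its IP and 0.36 in its input. The part of the input in its lower ratio was not tested.

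Farther out on the side of the chromosome end, tam14 had -0.14 ± 0.38 in rad3Δ and -0.029 ± 0.21 in WT, the gap between mug135 and tam14 had -0.067 ± 0.19 in rad3Δ and 0.11 ± 0.20 in WT, and mug135 had 0.026 ± 0.24 in rad3Δ and 0.093 ± 0.27 in WT (SD, n = 3 each). The gap between SPCC330.03C and mug135 had 0.15 ± 0.19 in rad3Δ and 0.14 ± 0.083 in WT. Of these loci and the small features among them, the probes beside the glycine transfer RNA gene had the highest mean ratio in both strains, and no locus there was above the array median by its call in rad3Δ or in WT.

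The input DNA, in contrast, was higher in rad3Δ over ura4 and its borders, and most of that rise lay between the 2 sites of the restriction enzyme HindIII (AAGCTT) nearest the gene on either side. A HindIII fragment with ura4 is a marker commonly used to replace genes in this yeast, and a probe reports every copy of its sequence. Both sites are shown because 8 of the 9 raised probes lie between them, read from ASM294v3, plus strand, with the recognition site in capitals.
Left of ura4, chrIII:115328-115367: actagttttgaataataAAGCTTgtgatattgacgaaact
Right of ura4, chrIII:117086-117125: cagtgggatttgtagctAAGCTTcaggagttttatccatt

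Between these sites, 1758 bp apart, 8 probes had a mean log2 input of 1.11, 1.35 and 1.16 on the rad3Δ arrays, against 0.76, 0.92 and 0.84 on the WT arrays. All rad3Δ arrays were above all WT arrays, with 1.21 ± 0.13 in rad3Δ and 0.84 ± 0.080 in WT (SD, n = 3 each), a difference of 0.37, and all 24 differences of single probes on single slides were positive. On the 36 probes within 5 kb on either side the input averaged -0.25 ± 0.035 in rad3Δ and -0.24 ± 0.066 in WT, and 49 of 108 such differences were positive.

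As loci, the gap between tam14 and ura4 differed in input by 0.36 and ura4 by 0.39, ranks 10 and 8 from the top of 5757. No locus in the genome was called for input (limma adjusted p = 1.0 for both, and 0.065 and 0.12 with the slide as a block), and 113 were higher and 9 lower at an unadjusted p under 0.05. The raised probes belonged to a run of 9 neighbours higher in rad3Δ on all 3 slides (chrIII:115080-117114), by 0.34 on average. It began 1 probe outside the left site, in tam14, whose input was higher by 0.077, 0.20 and 0.090 on the 3 slides, and a further HindIII site starts at 117148, beside the right one. The nuclear genome held 17 runs of at least this length and 2 of at least this length and mean, itself included. A shorter run of 4 probes at new22 and SPCC1884.01 (chrIII:36407-37165) was higher still in input, by 0.44, and no other run in the genome was at least this long and this high. That mean leans on 1 slide: the input of new22 differed by 1.59, 0.28 and 0.063 on the 3 slides, with WT replicate 1 low. The chromosome holds 1287 HindIII sites, with a median spacing of 1292.5 bp. No source used here says how rad3 was deleted, and whether the deletion carries ura4 was not tested.

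**Figure D4:**
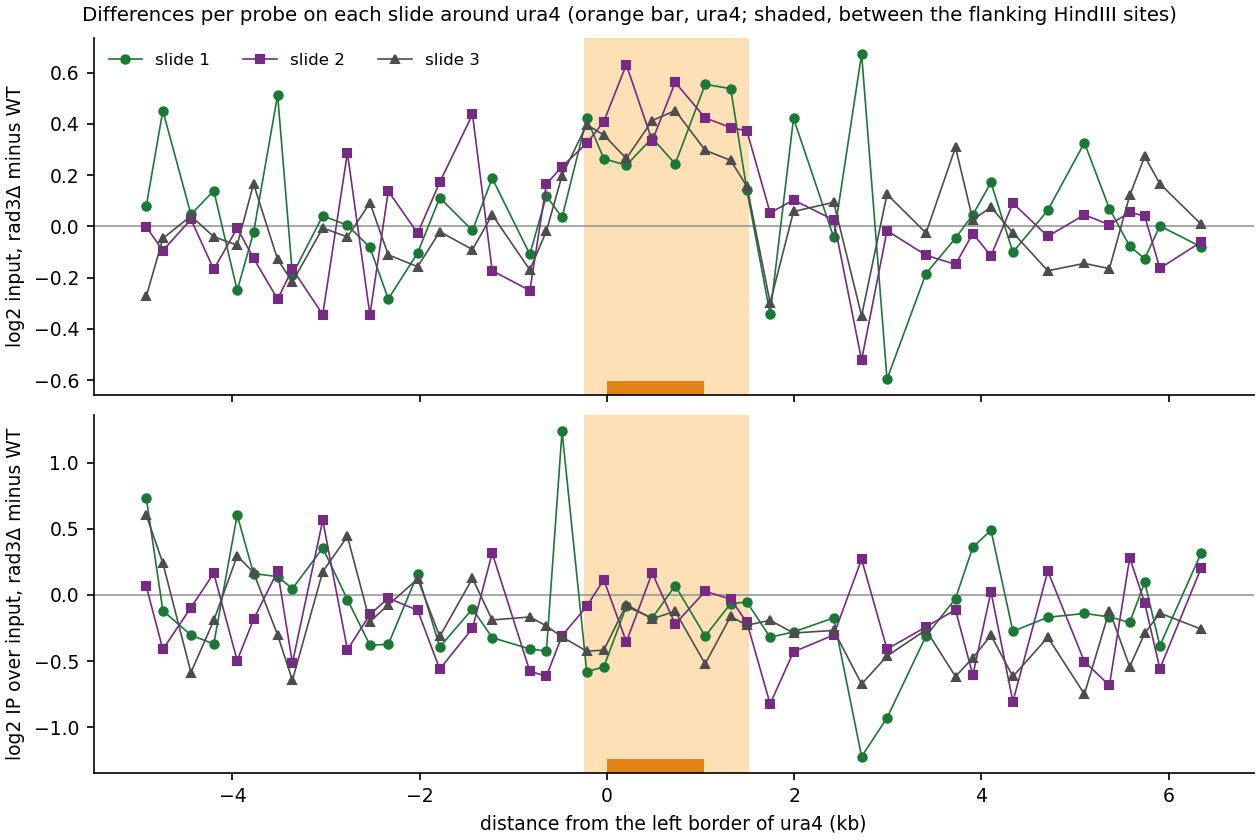
Difference rad3Δ minus WT per probe on each of the 3 slides, in log2 input (top) and log2 IP over input (bottom), against distance from the left border of ura4 in kb; the orange bar is ura4 and the shading lies between the flanking HindIII sites. The input differences of all 8 shaded probes are above 0 on every slide, whereas the ratio has no step at the borders of the shading.

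Since the ratio divides by input, the same 8 probes were set against their flanks in IP and ratio. Their IP averaged 1.19 ± 0.26 in rad3Δ and 1.03 ± 0.11 in WT, and their ratio 0.020 ± 0.18 in rad3Δ and 0.21 ± 0.13 in WT (SD, n = 3 each), a difference of -0.19. The flanking probes differed in ratio by -0.17, so the ratio was lower in rad3Δ by a similar amount over the fragment and around it.

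As a whole the stretch had 0.12, 0.069 and 0.18 on the rad3Δ arrays, against 0.10, 0.093 and 0.21 on the WT arrays. The arrays overlapped, and the difference of -0.012 (SE 0.035, adjusted p = 0.77, 95% interval -0.086 to 0.062) sums the rise at the end and the lower values beyond 50 kb. Of the other 23 windows of 100 kb on chromosome III, 19 were called lower in rad3Δ, 2 higher and 2 neither, with a median difference of -0.15. Genome-wide, 32.8% of windows of this width were called lower and 36% higher. The 2 higher ones were the last of the chromosome, at 0.22 and 0.23. The stretch ranked 25th of 125 windows in rad3Δ and 16th in WT, and 3rd on chromosome III in both.

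**Figure D5:**
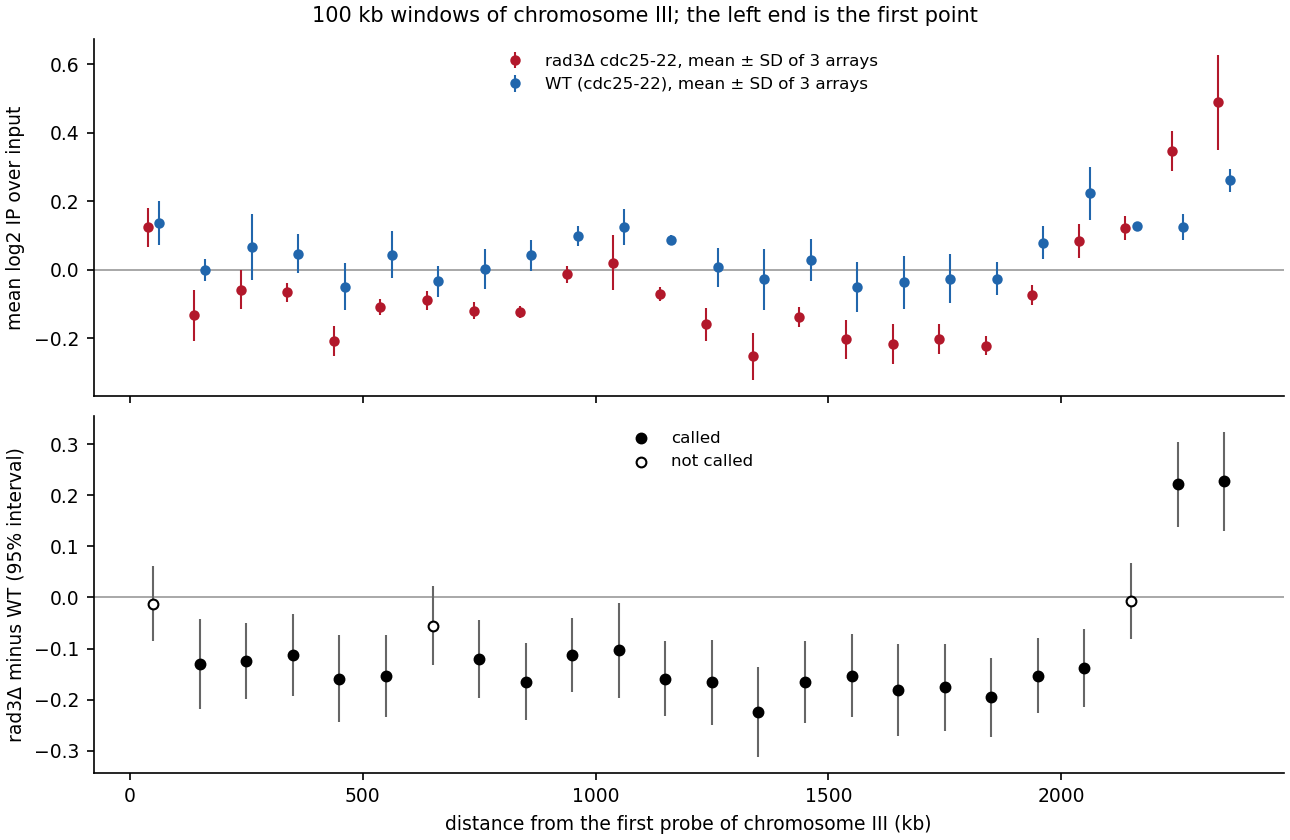
Windows of 100 kb along chromosome III against distance from the first probe in kb. Top, mean log2 IP over input ± SD of 3 arrays in rad3Δ (red, left) and WT (blue, right); bottom, difference rad3Δ minus WT with its 95% interval, filled where called. The left end, the first point, stands at -0.012, above the 19 called windows below 0, and the last 2 points stand at 0.22 and 0.23.

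Set against the rest of its own chromosome on each array, the stretch was higher by 0.17, 0.16 and 0.23 in rad3Δ and by 0.072, 0.086 and 0.11 in WT. This excess did not overlap between strains, with 0.19 ± 0.041 in rad3Δ and 0.090 ± 0.021 in WT (SD, n = 3 each, exact permutation test, two-sided, p = 0.10, the smallest possible). Centring each array on chromosome III in place of the whole genome moves every difference by 0.12, and the stretch then differed by 0.11 (adjusted p = 0.034). The sign of the whole-stretch difference was not settled, since it was 0.032 with centring on the mode and 0.0002 without rad3Δ replicate 2.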

How the data were processed

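The series holds 6 two-colour Agilent tiling arrays, 3 of rad3Δ and 3 of WT, grouped by the strain in their titles and numbered by the titles. Replicates 1 and 2 of both strains carried the IP in green, replicate 3 in red. The labels' protocols speak of RNA, and 1 input, that of the third rad3Δ array, is labelled cdc25-23; neither changed a group.

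The deposited scanner files hold spot intensities from Feature Extraction of Agilent (per the file headers 10.7.1.1 or 10.7.3.1, of which the submitters' processing notes name the second), with background subtracted and the dyes scaled, and with a lowess factor of 0. The files also give, as deposited, red over green as a log10 ratio. In the authors' series matrix the unit is IP over input as a linear ratio, equal to the scanner ratio within 0.01 for 100% of values, and was an alternative. Probe coordinates are those of a build the headers call Spombe:NCBI:Feb2002. In the stretch, probe length correlated with the G+C content of assembly ASM294v3 at -0.61 at the same position and at -0.23 and -0.19 when shifted by 100 bp, so genes and sequences were read there.

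From the deposited intensity values, log2 of IP over input was computed here without loess or quantile steps and centred on the array median. Control and flagged spots were left out, 5 of the latter in the stretch. Features were single probes, genes and gaps with at least 2 probes, windows of 10 and 100 kb and AT-rich islands, as means of their probes. For islands, probes up to 500 bp outside on either side were included. All 6 arrays entered 1 limma fit per kind (limma 3.58.1, R 4.3.3) with strain means and a dye term, two-sided, with Benjamini-Hochberg adjustment at 0.05 over all features of the genome and 3 residual degrees of freedom. Means ± SD are plain means of 3 arrays, and levels were tested as midpoints of both dye orientations. The number of arrays limits the precision. The fit was tested on simulated data.

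Same-numbered arrays shared a slide and deviated together (correlations 0.40, 0.36 and 0.48, against -0.29 to -0.11 for other pairs), so the numbers pair the samples, and the block result is given where it changes a call. Named loci were those within 5 kb of ura4, the 3 genes nearest the end, the 5 highest and 5 lowest in each strain, and up to 10 called rises and falls, with the 5 largest differences without overlap of arrays where none was called. nic1, the gap before it, the runs in rrp45, SPCC757.13 and rnc1 and the probe between ctt1 and cox14 fall outside that rule and were chosen after their values were seen. The members and lists were chosen with earlier results of these data known. The alternative without near-copy probes, found with BLAST 2.17.0, and the alternatives for input were chosen after seeing the data. Other steps used Python 3.11.15.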

Additional observations from a re-analysis of the deposited data

How the results depend on the processing

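Counts for the 363 probes (0 higher and 0 lower in rad3Δ), the 61 loci (4 and 0), the 10 windows of 10 kb (1 and 0) and the 3 islands (0 and 0) were recomputed under each alternative. Probes called higher became 6 with centring on chromosome III, 2 with dim probes left out and 6 with the replicate block; leaving out 1 array at a time gave 0 to 2 higher and 0 to 1 lower. Loci called higher became 0 with normexp and 0 without replicate 3 of both strains, and 0 to 4 without 1 array (0 without WT 3 or rad3Δ 3, 2 without rad3Δ 1). Loci called lower became 1 with a G+C correction (the gap between tam14 and ura4), 1 with at least 3 probes per locus (pmp20) and 4 with the replicate block, and 0 to 1 without 1 array (pmp20 without WT 2). Windows called higher became 3 with centring on chromosome III, 0 with normexp and 2 with 5 kb windows; windows called lower became 2 with the G+C correction and 3 with the replicate block, and 0 to 1 without 1 array (1 without replicate 1 or 2 of either strain). Islands of 72% A+T gave 2 called higher. Beside these, the block changed no call between strains of the results named in the text; in levels, meu23 in both strains and the gap before alg11 in WT then passed.

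Loci above the array median in rad3Δ (21) became 2 with normexp, 11 without replicate 3 of both strains and 7 to 22 without 1 array. Those below in rad3Δ (7) became 3 with centring on chromosome III, 0 with normexp, 11 with the block, 4 without replicate 3 of both strains and 0 to 9 without 1 array. Those above in WT (21) became 13 with centring on chromosome III, 11 with centring on the mode, 0 with normexp, 7 without replicate 3 of both strains and 0 to 21 without 1 array. Those below in WT (1) became 3 with the G+C correction, 3 with centring on chromosome III, 2 with centring on the mode, 0 without the dye term, 0 with normexp, 3 with the block and 0 to 1 without 1 array.

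The whole-stretch difference of -0.012 became 0.11 with centring on chromosome III and 0.032 on the mode, and ran from -0.029 to 0.0002 without 1 array. The first 10 kb window was at 0.25 with normexp (adjusted p = 0.57) and kept its call under every other alternative run, at 0.41 to 0.58. Among named loci, signs turned for the gap SPCC330.03C to mug135 (-0.042 with the G+C correction, -0.070 with normexp, -0.021 without replicate 3 of both strains, -0.043 to 0.095 without 1 array), mug135 (0.051 with centring on chromosome III, 0.29 with normexp), tam14 (0.0078 with centring on chromosome III, -0.35 to 0.082 without 1 array), ura4 (0.0098 with centring on chromosome III) and pmp20 (0.43 with normexp). No difference with a turned sign passed. Causes of these changes were not tested.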
